A study of Onthophagus taurus and Onthophagus nigriventris with 71 samples.

Results

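The comparison described here set brain RNA against ganglion RNA in newly formed pupae of the bull-headed dung beetle Onthophagus taurus, probe by probe, on 2-colour arrays. It took in every array of the series whose label names the brain, which was 12 of 71 arrays. On each array the brain sample was dissected central brain together with the optic lobes, and the other channel held subesophageal and thoracic ganglia. The arrays formed 3 groups of 4: females, for which the labels give the size as a range, large males, and small males. All animals were unmanipulated wild type beetles reared in the laboratory and were dissected within 24 hours of pupation, and each channel held tissue pooled from 4 individuals. In each group 2 arrays carried brain RNA in Cy5 and 2 carried it in Cy3. The labels do not say whether the brain and ganglion pools of an array came from the same animals, nor whether the 4 arrays of a group came from separate rearings, so the p-values below measure the spread between these pools. The other arrays of the series measured developing epidermis, in O. taurus and a related species, and only the 36 O. taurus arrays of head, prothorax and leg epidermis against abdominal epidermis are used below, for contrast.

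The central nervous system of an insect is a chain of ganglia. The brain, at its front end, receives the eyes and antennae, and its optic lobes process vision, whereas the subesophageal ganglion serves the mouthparts and the thoracic ganglia hold the motor circuits of the legs and wings. During metamorphosis both are remodelled, with larval neurons pruned and adult neurons maturing. In O. taurus large males grow head horns and fight for access to females, small males stay hornless and use sneaking tactics, and the study's design asked how far gene expression differs between these male morphs and between males and females.

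Each value is the log ratio that the authors deposited for a probe. The base of the logarithm is not stated and was taken as 2, the usual scale of limma, the tool the submitters name. On that reading 1 stands for a 2-fold difference between the tissues, and every count beyond 2-fold below is a count past 1 on the deposited scale. As deposited, the ratios of both dye orientations ran the same way. The study's design describes brain expression relative to ganglia, so a positive ratio most likely means a higher signal in the brain, but the files do not state the numerator and the results are given as positive or negative. The array holds 3840 probes from 2 sets of 1920, named OtL and OtP. The 3840 probe names matched 0 of 16956 genes in the annotation used here, so probes are given by their own names, markers of neurons, glia or other tissue could not be looked up, and no probe sequence is printed. Because pools of whole tissue were measured, a lower share of a cell type and less RNA per cell cannot be told apart.

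One array stood apart from the other 11. The pairwise correlation over all probes was as low as 0.105 with a median of 0.701 (66 pairs), and the lowest without small male array 3 was 0.432. Against the mean of the other 11 arrays, small male array 3 had r = 0.377, followed by female array 1 at 0.649, and the remaining 10 arrays lay between 0.779 and 0.891. Large male array 3 was the narrowest, with an SD over probes of 0.391, and female array 2 the widest at 0.751. These 3 arrays (female 1, large male 3 and small male 3) also deviated from their group means in a shared direction, with r of 0.612 between large male 3 and small male 3, 0.477 between female 1 and small male 3 and 0.457 between female 1 and large male 3. Results are therefore given with small male array 3 and, where it weighs on them, without it.

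**Figure D1:**
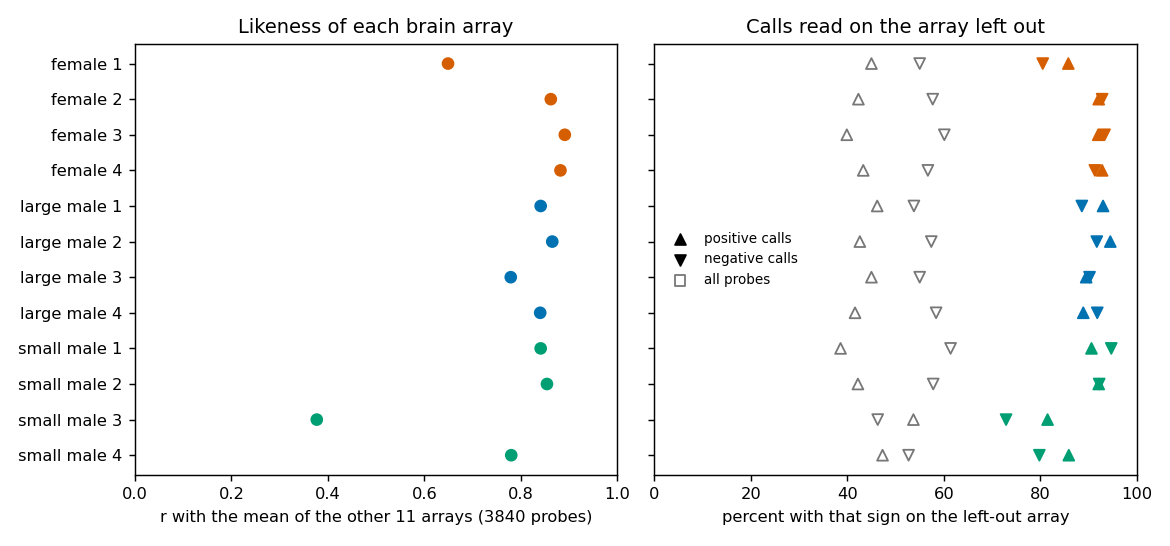
The left panel plots, for each of the 12 arrays, the correlation over 3840 probes with the mean of the other 11 arrays, and the right panel plots the percentage of probes called positive (filled upward triangles) or negative (filled downward triangles) on the other 11 arrays that had that sign on the array left out, with the percentage over all probes as open triangles. Small male 3 is lowest in both panels, at r = 0.377 and at 81.5% and 72.9% of the calls, and its open triangles are in the opposite order to those of the other arrays.

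Most probes on the array differed between brain and ganglia. With a linear model in limma, 2170 of 3840 probes passed an adjusted p of 0.05 (56.5%), of which 838 were positive (21.8%) and 1332 negative (34.7%), and 2353 had an unadjusted p under 0.05. The negative differences were more numerous but smaller. The median called ratio was 0.38 on the log2 scale among positive calls and -0.32 among negative calls, beside a median of -0.06 over all probes. Once each array was centred on its own median the calls split evenly, 1043 positive and 1042 negative, so the excess of negative calls did not hold under that scaling. Without small male array 3 there were 2126 calls, 811 positive and 1315 negative.

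Large differences were mostly positive. Of the 194 called probes with a mean beyond 2-fold (5.05%), 170 were positive (4.43%) and 24 negative (0.625%), and after centring 177 were positive and 19 negative. At a log2 ratio beyond 1.5 the counts were 93 positive and 5 negative, beyond 2 they were 47 and 2, and beyond 3 they were 13 and 1. Probes are counted singly here, although several of the largest positive ones ran alike across arrays, as described below. Whether such probes report the same transcript was not tested. The positive probes were also the more variable: the median SD within a group was 0.77 for positive probes beyond 2-fold and 0.37 for negative ones, against 0.23 over all probes. The 2 sets were not matched for size, since 93 of the 170 positive but 5 of the 24 negative probes were beyond 1.5. Whether the SD went with size or with sign was not tested. Of the 170 positive probes 120 kept their sign on all 12 arrays, as did 20 of the 24 negative probes. Among all calls 399 of 838 positive and 499 of 1332 negative probes did so. The probes beyond 2-fold were picked by their mean over the same arrays, which favours a shared sign. Leaving out small male array 3 raised the counts beyond 2-fold to 192 positive and 28 negative.

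**Figure D2:**
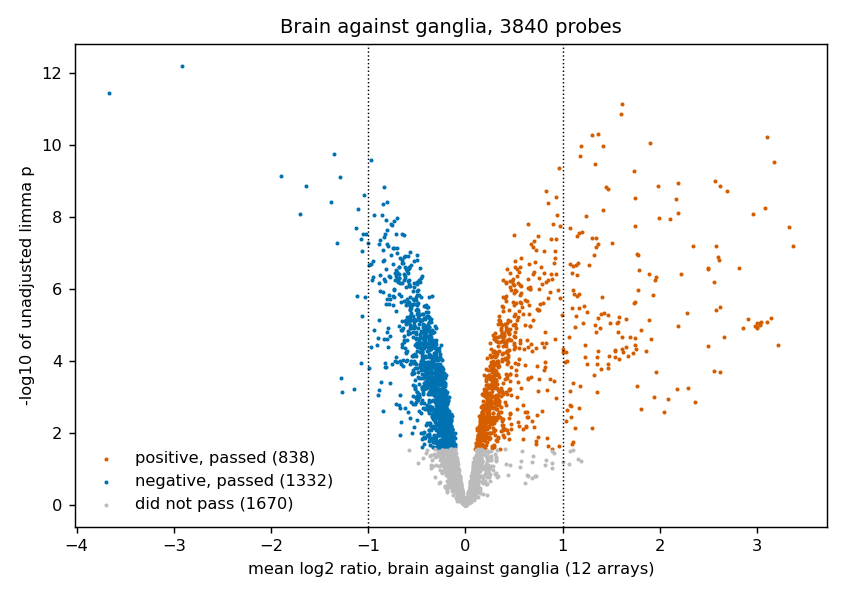
Each point is 1 of 3840 probes, with the mean log2 ratio of brain against ganglia over 12 arrays on the horizontal axis and -log10 of the unadjusted limma p on the vertical axis, and dotted lines mark 2-fold. Positive calls (838) reach much larger ratios than negative calls (1332), apart from 2 negative probes beyond a ratio of -2.

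The 10 largest positive probes were ranked among the calls with the same sign in the 3 group means. They had means of 3.04 to 3.37 and adjusted p from 3.18e-08 to 0.000227. The largest was OtL010-F09. Its log2 ratios were 1.33, 4.78, 4.73 and 4.05 in females, 2.91, 2.98, 2.16 and 2.98 in large males, and 2.76, 4.18, 3.50 and 4.13 in small males. Every array was positive, female array 1 was the lowest, and the groups overlapped. The mean was 3.37 ± 0.27 (SE, n = 12 arrays; adjusted p = 2.71e-06).

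OtL009-G01 was the steadiest of the 10. It measured 2.29, 3.51, 3.91 and 3.28 in females, 2.84, 3.13, 2.35 and 2.70 in large males, and 3.04, 3.60, 3.07 and 3.47 in small males. The 12 values spanned less than 2 log2 units, and small male array 3 lay within the range of the others. Its mean was 3.10 ± 0.13 (SE, n = 12; adjusted p = 3.18e-08). The probe whose 12 values lay closest to it was OtP008-C07, with 1.81, 3.32, 3.91 and 3.27 in females, 3.48, 3.20, 3.27 and 2.88 in large males, and 2.69, 3.45, 3.18 and 3.63 in small males. Those 2 probes differed by 0.382 log2 units on the brain arrays (root mean square over 12 arrays) but by 1.30 on the 59 arrays without brain.

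OtP004-F09 and OtP010-A08 were alike on both sets of arrays. OtP004-F09 had ratios of 1.64, 4.29, 3.35 and 3.36 in females, 3.96, 3.09, 2.76 and 3.51 in large males, and 4.18, 3.87, 2.02 and 3.98 in small males. OtP010-A08 had 1.89, 3.65, 3.84 and 3.01 in females, 3.71, 2.80, 2.44 and 2.94 in large males, and 3.84, 3.20, 2.07 and 3.64 in small males. Both were lowest on female array 1 and next lowest on small male array 3. Their means were 3.33 ± 0.23 (adjusted p = 1.24e-06) and 3.09 ± 0.19 (adjusted p = 5.67e-07), and they differed by 0.417 on the brain arrays and by 0.255 on the other 59. Whether the 2 probes report the same transcript was not tested.

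A set of 4 among the 10, picked out after their values were seen, had another pattern across arrays. OtL013-A03, the most extreme of them, measured 1.13, 4.34, 5.23 and 4.88 in females, 3.90, 1.90, 0.82 and 4.31 in large males, and 4.73, 4.50, 0.42 and 2.44 in small males. OtL006-G01 measured 1.87, 4.04, 4.05 and 4.21 in females, 4.04, 2.20, 1.33 and 4.17 in large males, and 4.52, 4.17, 0.35 and 2.28 in small males. OtP001-C10 and OtL005-H03 followed the same course. On 7 arrays the 4 probes lay between 3.69 and 5.23, on female 1, large male 2 and small male 4 they lay between 1.13 and 2.44, on large male 3 between 0.82 and 1.41, and on small male 3 between 0.30 and 0.42. Each group of animals thus held high and low arrays, and the 6 pairs of these probes differed by only 0.199 to 0.504 log2 units (root mean square). Their means were 3.04 to 3.22 with SE of 0.39 to 0.48, and 3.34 to 3.56 without small male array 3. Probes outside the leading 10 ran with them as well: OtP015-E01 differed from OtL006-G01 by 0.175, OtP008-C01 from OtP001-C10 by 0.167 and OtP002-D07 from OtL005-H03 by 0.196. The 5 leading probes that did not share this course (OtL010-F09, OtP004-F09, OtP008-C07, OtL009-G01 and OtP010-A08) lay between 2.02 and 3.50 on small male array 3.

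OtL015-A11, the remaining probe of the 10, turned sign on that array. It measured 3.16, 4.47, 3.83 and 3.04 in females, 3.20, 2.58, 3.23 and 3.84 in large males, and 4.49, 3.72, -1.23 and 3.45 in small males. On 11 arrays it was beyond 2.5 and on small male array 3 it was negative. The mean was 3.15 ± 0.39 (adjusted p = 6.61e-05), and 3.58 without that array.

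**Figure D3:**
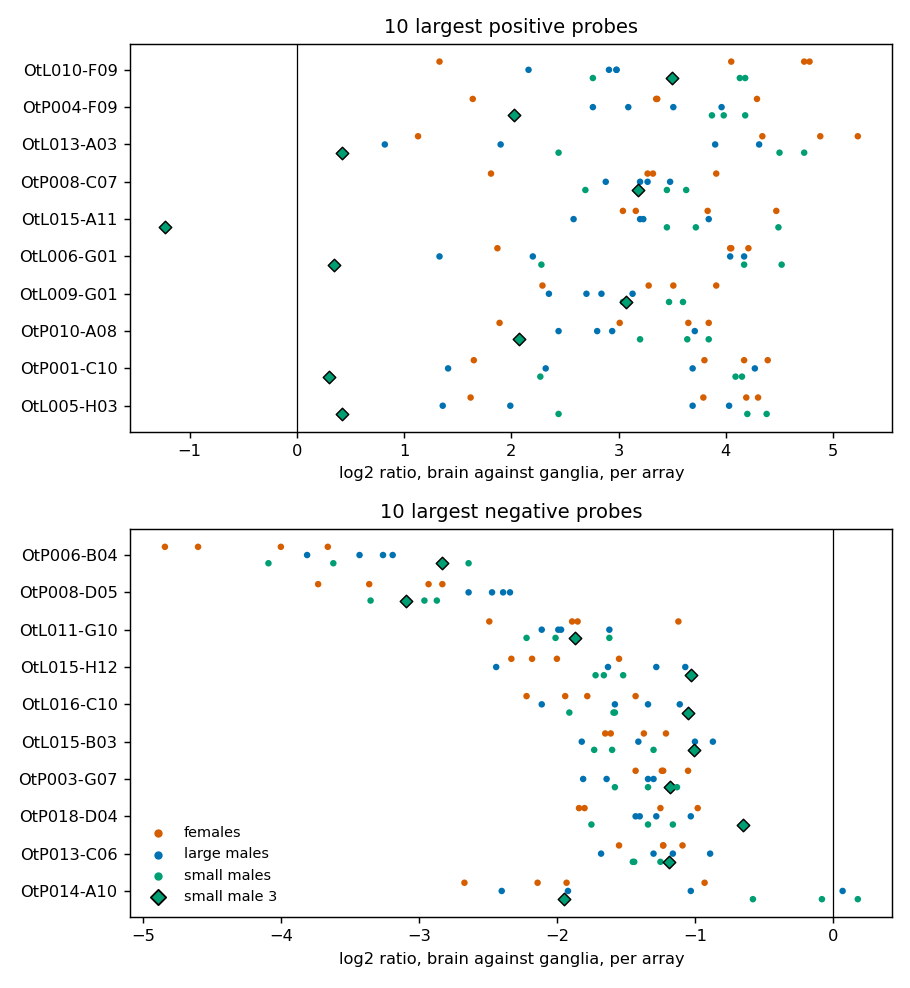
Each row is a probe and each point 1 array, with females, large males and small males drawn from top to bottom within a row, small male 3 as a diamond, and the log2 ratio of brain against ganglia on the horizontal axis. In the upper panel the diamond falls to between 0.30 and 0.42 for 4 probes and to -1.23 for OtL015-A11, whereas in the lower panel it stays within or near the spread of the other arrays and is closest to 0 for OtP018-D04, at -0.65.

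Among negative probes 2 stood well beyond the rest. OtP006-B04 measured -3.66, -4.00, -4.84 and -4.60 in females, -3.19, -3.26, -3.43 and -3.81 in large males, and -2.64, -4.09, -2.83 and -3.62 in small males. All 12 arrays were beyond -2.5, and the 2 most negative values were in females. The mean was -3.66 ± 0.12 (SE, n = 12; adjusted p = 6.97e-09), and the difference between females and males, -0.92 ± 0.24, did not pass (adjusted p = 0.948).

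OtP008-D05 was more even across the arrays. It had -2.93, -3.73, -2.83 and -3.36 in females, -2.39, -2.47, -2.64 and -2.34 in large males, and -2.96, -2.87, -3.09 and -3.35 in small males. Its mean was -2.91 ± 0.08 (adjusted p = 2.39e-09). The large male arrays were all less negative than every small male array and every female array, but the difference of 0.61 ± 0.19 between large and small males did not pass (adjusted p = 1).

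The other 8 leading negative probes had means of -1.90 to -1.28. OtL011-G10 (-1.90 ± 0.10), OtL015-H12 (-1.70 ± 0.11) and OtL016-C10 (-1.64 ± 0.09) were negative on all 12 arrays, as were OtL015-B03 (-1.38 ± 0.08), OtP003-G07 (-1.36 ± 0.06), OtP018-D04 (-1.33 ± 0.10) and OtP013-C06 (-1.29 ± 0.07). OtP014-A10 was the exception. It measured -1.93, -0.93, -2.67 and -2.14 in females, -2.40, -1.92, -1.03 and 0.07 in large males, and -0.08, 0.18, -1.95 and -0.58 in small males, so that 10 of 12 arrays were negative. Its mean was -1.28 ± 0.25 (adjusted p = 0.00113). Small male array 3 was among its more negative values, and without that array the mean was -1.11.

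Near the threshold the ratios were small. The last probes inside it were OtP001-F12 at -0.24 ± 0.09 and OtP016-H03 at -0.19 ± 0.07 (adjusted p = 0.0496 each), and the first outside were OtP012-E01 at 0.16 ± 0.06 (adjusted p = 0.0501) and OtP013-D01 at 0.41 ± 0.16 (adjusted p = 0.0502). Both sets of probes held called ones. Of 1920 probes each, 1104 OtL probes (57.5%) and 1066 OtP probes (55.5%) passed. Over blocks of 96 probes whose names begin alike, the share ran from 32.3% for OtL002 to 67.7% for OtP001. Positions of probes on the array were not used.

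The calls could be read on an array that had no part in making them. The test was run 12 times on 11 arrays, and the sign of each called probe was looked up on the array left out. Positive calls had the same sign on the left-out array in 81.5% of 811 probes (small male 3) to 94.5% of 786 probes (large male 2), where 38.6% to 53.7% of all probes were positive. Negative calls had the same sign in 72.9% of 1315 probes (small male 3) to 94.7% of 1188 probes (small male 1), where 46.3% to 61.4% of all probes were negative.

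Small male array 3 carried only part of the large positive differences, and at reduced size. Of the 192 probes positive beyond 2-fold on the other 11 arrays, 142 were positive on it, where 53.7% of all probes were positive. Of the same 192, 87 were above 1 and 18 above 2 on it, with a median of 0.77 there and 1.55 on the other arrays. The number above 1 among these probes was 86 on large male array 3 and 113 on female array 1. On the remaining 9 arrays it was 133 to 178. These 192 probes, and the 28 negative ones below, were chosen on the other 11 arrays, which favours larger values there. With each array left out of the choice in turn, the median of the positive probes on it was 0.768 for small male 3, 0.996 for large male 3 and 1.128 for female 1. For the remaining 9 arrays that median was 1.333 to 2.258. Of the 28 probes negative beyond 2-fold, all 28 were negative on small male array 3, with a median of -0.72 against -1.13 on the others. Its median over all probes was 0.0314, where the other 11 arrays had -0.107 to -0.0228.

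Both dye orientations gave much the same ratios. Fitted on the 6 arrays with brain RNA in Cy5 alone, 1244 probes passed (32.4%), and on the 6 with brain RNA in Cy3 alone, 1332 passed (34.7%). Of the 3840 probes, 863 were called in both, and 861 of them had the same sign. The 863 are 69.4% of the Cy5 list, where 34.7% of all probes passed on the Cy3 arrays. They are 64.8% of the Cy3 list, where 32.4% of all probes passed on the Cy5 arrays. Of the probes called on Cy5 arrays, 97.3% (1211) had the same sign in the mean of the Cy3 arrays, as did 97.3% of the reverse (1296), beside 81.9% of all probes. The mean ratios of the 2 sets correlated over probes with r = 0.910.

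The effect of dye was itself tested. It passed at 0 probes in limma (0.0%), with 328 at an unadjusted p under 0.05 where 192 would be reached by chance. The smallest p belonged to OtP001-D05. Its ratios were 0.47, 0.37, 0.41, 0.29, 0.46 and 0.32 on the 6 arrays with brain RNA in Cy5, against -0.50, -0.30, -0.30, 0.05, -0.46 and -0.35 on those with brain RNA in Cy3. The 2 orientations did not overlap, and they differed by 0.70 ± 0.10 (adjusted p = 0.0843). The probe was picked for its p, which favours orientations that do not overlap. OtP012-A04 differed by 0.76 ± 0.14 and OtP001-E11 by 0.48 ± 0.09 (adjusted p = 0.23 each). Counts for this term depended on the fit. Without large male array 4 or small male array 2, there were 3 and 1 calls. When all 48 O. taurus tissue arrays shared an estimate of the spread and of the dye effect, 133 probes passed. That dye effect is common to brain and epidermal arrays and is not one of the brain arrays alone.

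Each sex and morph group showed the brain and ganglion difference when its own mean was tested. With the spread shared by the 3 groups, 1376 probes passed in females (35.8%), 936 in large males (24.4%) and 1027 in small males (26.7%). Positive calls numbered 559 in females (14.6%), 371 in large males (9.66%) and 452 in small males (11.8%), and negative calls 817 (21.3%), 565 (14.7%) and 575 (15.0%). Of the 3840 probes, 667 were in all 3 lists, 282 positive and 385 negative. That is 48.5% of the female list, 71.3% of the large male list and 64.9% of the small male list. The 3 tests share an estimate of spread for each probe, so their lists are not independent. The overlap to be had by chance was not computed. No probe was called with opposite signs in different groups. The group means correlated over probes with r = 0.924 between females and large males, 0.920 between females and small males and 0.879 between large and small males.

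The longer female list was not a tested difference. Female ratios had the widest spread over probes, with an SD of 0.589, against 0.498 in large males and 0.513 in small males. The counts of single groups rested on few arrays: 4 female arrays gave 1376 calls, and leaving any female array out gave 941 to 1375. In large males the count was 513 without array 1, 437 without array 2 and 474 without array 4, and in small males 677 without array 1 and 545 without array 2. Weighting the arrays by their fit raised the large male count to 1415. The largest weight of all brain arrays, 2.88, went to large male array 3, the narrowest, and small male array 3 had 0.818.

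**Figure D4:**
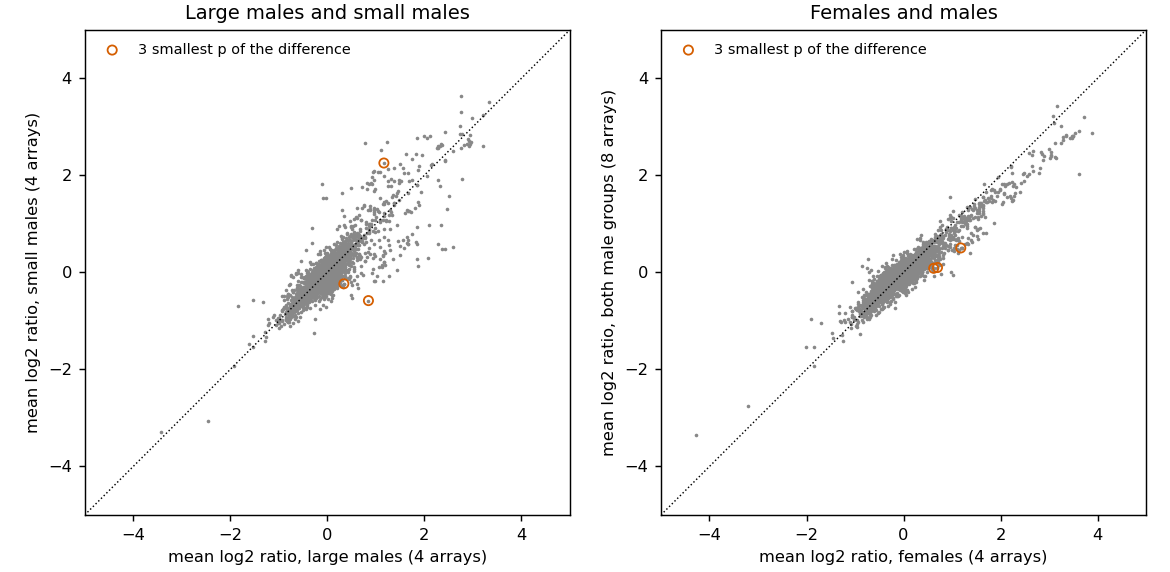
Each point is 1 of 3840 probes, with the mean log2 ratio of brain against ganglia in large males and in small males (4 arrays each, left), and in females (4 arrays) and both male groups (8 arrays, right), a dotted line of equal values, and circles at the 3 probes with the smallest p of the difference. The points lie along the line in both panels (r = 0.879 between large and small males), and no probe passed the test of a difference.

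No probe passed the test of a difference between groups. Among the 3 groups together 0 probes passed (0.0%), with 104 at an unadjusted p under 0.05 and a smallest adjusted p of 0.879. Large against small males gave 0 calls (0.0%), 82 at an unadjusted p under 0.05 and a smallest adjusted p of 1, and females against males gave 0 (0.0%), 169 and 0.383. By chance 192 probes would reach that unadjusted threshold. In simulated data built on these arrays, with 200 of 3840 probes made to differ, the same test of large against small males recovered 83.6% of those that differed by 1 log2 unit and 38.8% of those that differed by 0.5. These rates hold for that many differing probes, and with fewer of them the adjustment over all probes is stricter. The simulated noise was independent between arrays and, for a given probe, equally wide on each. It held no outlying array and no shared deviations such as those described above, so the rates may not hold for the real arrays.

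The probes with the smallest p for sex all had larger ratios in females. Picking them by p favours groups that do not overlap, and how many of all probes separate in this way was not counted. OtP002-G03 measured 1.03, 0.69, 0.53 and 0.55 in females, against 0.13, 0.19, 0.02 and 0.12 in large males and 0.38, -0.23, 0.01 and 0.20 in small males. The female arrays lay above all 8 male arrays, and the difference was 0.60 ± 0.10 (adjusted p = 0.383). OtP003-D01 likewise had 1.38, 1.17, 1.16 and 1.02 in females, against 0.42, 0.49, 0.43 and 0.09 in large males and 0.48, 0.98, 0.62 and 0.52 in small males, without overlap and with a difference of 0.68 ± 0.12 (adjusted p = 0.404). OtP007-A10 had 0.63, 0.79, 0.71 and 0.36 in females, against 0.23, 0.30, 0.04 and -0.16 in large males and 0.12, 0.21, -0.13 and 0.06 in small males, again without overlap (0.54 ± 0.11, adjusted p = 0.411).

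Between the male morphs, OtP019-A02 measured 0.59, 0.24, 0.20 and 0.35 in large males, against -0.58, -0.30, -0.12 and 0.06 in small males, a difference of 0.58 ± 0.15. OtL002-B04 ran the other way, with 1.25, 1.60, 0.73 and 1.09 in large males, against 1.91, 2.45, 2.19 and 2.46 in small males (-1.09 ± 0.30). Neither pair of groups overlapped, and neither passed (adjusted p = 1 each). Both probes were picked for a small p, which favours groups that do not overlap. OtP020-H12 had 1.67, 0.76, 0.26 and 0.70 in large males, against 0.50, -0.26, -1.67 and -0.90 in small males, so the groups overlapped. Its difference of 1.43 ± 0.39 had an adjusted p of 1 with the spread of the brain arrays alone and 0.0237 in the fit of all 48 arrays, where it was the only call.

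Brain ratios correlated only weakly with those of the epidermal tissues. Head, prothorax and leg epidermis were each set against abdominal epidermis, so neither side of those ratios matches the brain comparison. Over probes, the brain means correlated with r = 0.130 with the head, 0.134 with the thorax and 0.0791 with the legs. The SD over probes was 0.517 in the brain comparison, against 0.990, 0.801 and 0.891 in head, thorax and legs. In a fit of the 48 arrays the brain ratio differed from the mean epidermal ratio at 2705 probes (70.4%), 1037 positive (27.0%) and 1668 negative (43.4%), and after centring at 1264 positive and 1357 negative. This contrast takes the brain and epidermal ratios to run the same way, as the design words both, although neither numerator is stated. With the epidermal ratios turned, an alternative chosen after the data were seen, the count was 2751, 1319 positive and 1432 negative. The correlations would then be negative, and each positive share of an epidermal tissue below would be a negative one.

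Probes called in the brain carried both signs in epidermis, and their shares are given as a description with no test. Of the 838 positive in the brain, 450 were positive in head (53.7%), 442 in thorax (52.7%) and 475 in legs (56.7%). The share over all probes was 41.7%, 35.8% and 37.2%. Negative in epidermis were 27.9% of the 838 in head, 25.9% in thorax and 24.8% in legs, beside 33.2%, 30.4% and 29.6% of all probes. Of the 1332 negative in the brain, 550 were negative in head (41.3%), 518 in thorax (38.9%) and 511 in legs (38.4%), where the share over all probes was 33.2%, 30.4% and 29.6%. Positive in epidermis were 35.0% of the 1332 in head, 27.3% in thorax and 27.0% in legs, beside 41.7%, 35.8% and 37.2% of all probes. Head, thorax and legs share abdomen as their comparison, so these 3 readings are not independent. Among the 170 positive probes beyond 2-fold the signs in epidermis were more mixed. In head 85 were positive (50.0%) and 62 negative (36.5%). In thorax there were 81 (47.6%) and 66 (38.8%), and in legs 75 (44.1%) and 74 (43.5%). In each tissue both shares were above those over all probes.

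The leading brain probes differed widely in epidermis. OtL009-G01, at 3.10 in brain, had 0.03 in head, -0.12 in thorax and 0.19 in legs, none of which passed, and its brain ratio exceeded the epidermal mean by 3.07 ± 0.12 (adjusted p = 1.27e-23), and by 3.13 ± 0.12 with the epidermal ratios turned. OtP008-C07, close to it on the brain arrays, had 0.97, 0.86 and 1.20 in the 3 epidermal tissues. OtL010-F09 had 1.60 in head, 1.92 in thorax and 1.68 in legs, and OtP004-F09 had 2.16, 1.64 and 1.88. The 4 probes that moved together on the brain arrays were positive in all 3 epidermal tissues, with 2.16 to 2.73 in head, 1.67 to 2.26 in thorax and 1.04 to 1.70 in legs.

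The most negative brain probes parted company outside the brain. OtP008-D05, at -2.91 ± 0.08 in brain, was strongly positive in epidermis, at 2.16 in head, 4.85 in thorax and 3.36 in legs, a difference of -6.37 ± 0.26 between brain and epidermis (adjusted p = 4.58e-23). With the epidermal ratios turned that difference was 0.54 ± 0.26 and did not pass (adjusted p = 0.0631). OtP006-B04, at -3.66 in brain, was at -0.85 in head, -0.08 in thorax and 0.71 in legs, a difference of -3.59 ± 0.13, and -3.74 ± 0.13 with the epidermal ratios turned. OtP014-A10 was negative throughout, at -1.28 in brain and at -2.83, -2.83 and -2.39 in epidermis, and so its brain ratio was the higher by 1.40 ± 0.29 (adjusted p = 4.67e-05), but lower, at -3.96 ± 0.29, with the epidermal ratios turned. OtL006-H09 had brain values of -1.01, -2.03, -0.82 and -2.98 in females, -1.47, -1.44, -2.12 and -1.07 in large males, and 0.06, -0.28, -2.99 and 0.89 in small males. It averaged -1.27 ± 0.27 in brain, against 2.94 in head, 1.28 in thorax and 1.0 in legs (difference -3.01 ± 0.27, adjusted p = 1.29e-12). Turned, its difference was 0.47 ± 0.27 (adjusted p = 0.12).

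At the other extreme, 3 probes were positive in the brain and strongly negative in epidermis. OtL005-F06 measured 2.84, 0.87, 1.57 and 1.95 in females, 1.31, 3.46, 1.32 and 2.28 in large males, and 2.33, 1.36, 0.40 and -0.20 in small males. Its mean was 1.62 ± 0.26 in brain, against -5.15 in head, -4.01 in thorax and -4.49 in legs, and the difference was 6.17 ± 0.21 (adjusted p = 1.1e-25). OtP001-H03 (1.47 ± 0.25 in brain, difference 6.12 ± 0.21) and OtL002-C06 (1.67 ± 0.27 in brain, difference 5.93 ± 0.20) were close to it, as the 3 pairs differed by 0.273 to 0.376 log2 units on the brain arrays (root mean square). All 3 were highest on large male array 2, at 3.11 to 3.54, and lowest on small male array 4, at -0.35 to -0.20, with small male array 3 at 0.40 to 0.63. The order of arrays was therefore not that of the 4 leading probes described above, which were below 2.5 on large male array 2. With the epidermal ratios turned, the differences of OtL005-F06, OtP001-H03 and OtL002-C06 changed sign to -2.93, -3.18 and -2.58. Other probes then had the largest differences, with OtL009-F10 at 7.28 ± 0.36 (-2.56 as deposited) and OtL006-A08 at -5.65 ± 0.21 (4.28 as deposited).

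**Figure D5:**
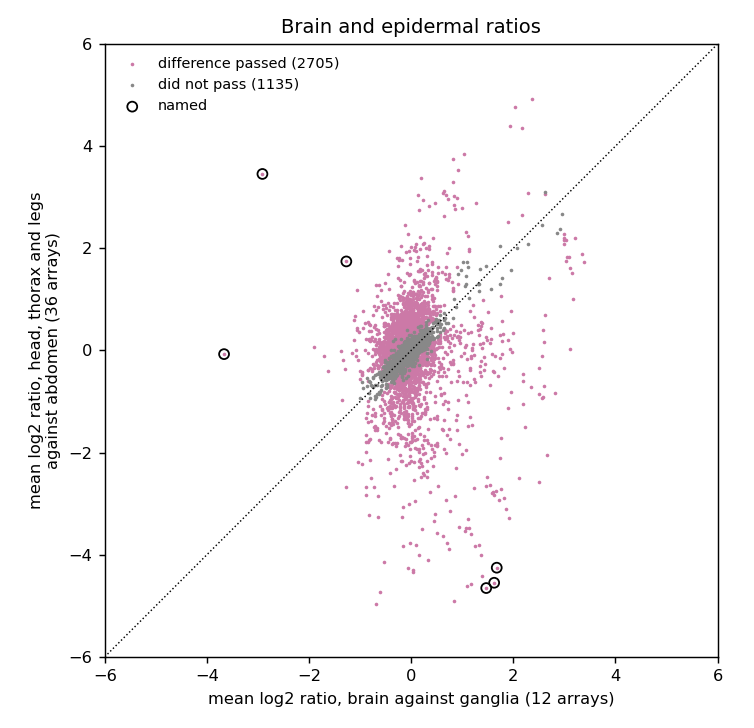
Each point is 1 of 3840 probes, with the mean log2 ratio of brain against ganglia (12 arrays) on the horizontal axis and the mean of head, thorax and leg epidermis against abdomen (36 arrays) on the vertical axis; pink points passed the test of a difference with the ratios as deposited (2705) and circles mark the 6 named probes. OtP008-D05 lies at the upper left, OtL005-F06, OtP001-H03 and OtL002-C06 at the lower right, and the cloud has no clear slope (r of 0.0791 to 0.134 with the single tissues).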

How the data were processed

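The authors deposited 1 normalized ratio per probe and array, which was used as given and taken as log2. Per the submitters' processing notes the authors used limma, with no version given. How background was corrected, how arrays were normalized and which logarithm was used is not stated in the labels or file headers. The deposited values have more than 6 digits in at least 99.2% of cells on arrays with brain RNA in Cy5 and in 0% on arrays with brain RNA in Cy3, so the 2 orientations differ in that respect. No value was missing.

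Ratios were fitted in limma 3.58.1 (R 4.3.3) on the 12 brain arrays, with 3 group means and a term for dye. The mean of the group means was tested against 0 with moderated statistics (8 residual degrees of freedom), two-sided, with Benjamini-Hochberg adjustment over all 3840 probes at 0.05. Differences from epidermis used a fit of 48 arrays, and head, thorax and legs a fit of 36. These differences take both sets of ratios to run the same way, and were recomputed with the epidermal ratios turned. Brain and epidermal arrays shared a spread per probe in the fit of 48, so the SE of a difference does not show the brain spread alone. Probe intensities were not used, so the number of arrays sets the precision. On simulated data with 200 of 3840 probes changed, the brain test recovered 91% of changes of 0.5 log2 units and 98.5% of changes of 1, with 13 false calls. For large against small males the false calls were 6. The simulated noise was independent between probes and arrays and, for a given probe, equally wide on every array, unlike that of the real arrays. Each test was simulated in a single draw. In the data 56.5% of probes passed the brain test, far more than were changed in the simulation. The adjustment was therefore stricter in the simulation, and its brain rates do not describe the real test.

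Named probes are the 10 largest positive and 10 largest negative calls with the same sign in the 3 group means, the 3 smallest p for each group contrast and for dye, the 3 largest differences from epidermis each way, and the 2 probes on each side of the threshold. Sets of probes alike across arrays were picked after their values were seen. The members and lists were chosen with earlier results of these data known. Lists of genes and cell type markers could not be applied, since no probe matched a gene name. Same-numbered arrays of different groups deviated from their group means with r from -0.292 to 0.612, so the replicate numbers were not taken as pairs.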

Additional observations from a re-analysis of the deposited data

Results flagged for a closer look

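Within groups of 4 arrays, 7 of 120 sets of values held an array far from the other 3 by Dixon's criterion, which chance meets in about 1 of 20 sets. The number found is close to that rate. The sets come from the same 12 arrays and are not independent. Female array 1 had r = 0.649 with the mean of the other arrays, where the other females had 0.862 to 0.891, and OtL006-G01 measured 1.87 on it, where they had 4.04 to 4.21. On female array 2 OtP013-D01 measured 1.76, against -0.05 to 0.24 on the other female arrays. Large male array 3 had an SD over probes of 0.391, where the other large males had 0.594 to 0.628, and OtL010-F09 measured 2.16 on it, against 2.91 to 2.98. Small male array 3 had r = 0.377 with the mean of the other arrays, where the other small males had 0.78 to 0.854, and OtP004-F09 measured 2.02 on it, against 3.87 to 4.18.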

How the results depend on the processing

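The brain against ganglia count of 2170 was 1989 to 2252 with centring, scaling to a common spread, no dye term, array weights, robust moderation, a replicate block (2149) or a fit of all 48 arrays, and 1987 to 2185 with any array left out. It fell to 1244 and 1332 on the Cy5 or Cy3 arrays alone, which are 6 arrays each. The brain against ganglia, over 2-fold count of 194 ranged from 184 to 220 with an array left out. Leaving out an array gave 941 to 1418 for female brain against ganglia, 437 to 1023 for large male brain against ganglia and 545 to 1084 for small male brain against ganglia, and array weights gave 1415 for large males. The 3 contrasts between groups stayed at 0 calls in every fit of the brain arrays, and the large male minus small male brain contrast had 1 in the 48-array fit. The dye term in the brain arrays gave 0 to 3 with an array left out. The dye effect of the 48-array fit, which is common to brain and epidermal arrays, gave 133. The brain effect minus epidermal effect count of 2705 was 2633 to 2694 with a brain array left out. The replicate block changed no call count by over 1.5 times. Chosen after the data were seen, a fit without female 1, large male 3 and small male 3 gave 2027 calls (762 positive), 242 of them beyond 2-fold, with 1153, 795 and 808 in females, large males and small males. The 20 leading probes kept direction and call in all 22 alternatives each. The 2 probes just inside the threshold lost the call in 26 of 44 values, and the 2 just outside gained it in 16 of 44. With the epidermal ratios turned, also chosen after the data were seen, the brain effect minus epidermal effect count was 2751, and the difference changed sign for OtL005-F06 (-2.93), OtP001-H03 (-3.18), OtL002-C06 (-2.58), OtP008-D05 (0.54) and OtL006-H09 (0.47) but not for OtP006-B04 (-3.74). No other direction was reversed among the named probes. Signal over background is not in the deposited values, so dim probes could not be set apart, and no gene or tissue marker could be checked.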
